A study of Mus musculus with 12 samples.

Results

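The genes described here are the cytosolic ribosomal protein genes of mouse oligodendrocytes, chosen by symbol (Rps or Rpl with a number, Rplp0 to Rplp2 and Rpsa, without pseudogenes whose names end in -ps) and not by any measured value. They were 89 of the 55376 rows of the gene count table, 36 of the small (40S) subunit and 53 of the large (60S) subunit. Of the 89 genes, 83 were annotated as protein coding and 6, Rps4l, Rps12l1, Rpl32l, Rpl6l, Rps3a2 and Rps3a3, as processed pseudogenes. RNA-Seq had been performed on O1+ CD45- oligodendrocytes sorted from C57BL/6 brains at postnatal day 40. The 3 genotypes were WT, Cnp-Cre Jab1fl/fl, in which both alleles of Jab1 (Cops5) are floxed, and Cnp-Cre Jab1fl/fl p21CIP1-/-, the double mutant that also lacks Cdkn1a in every cell. Cre under the Cnp promoter recombines across the later oligodendrocyte lineage and, outside the brain, in myelinating glia of nerves, so the deletion is not limited to mature cells. There were 4 samples per genotype, each pooled from 2 brains, and total counts ran from 61485556 to 153495112 per sample.

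Each ribosome contains a single copy of almost every ribosomal protein, so cells make these proteins in step, at a rate matched to the supply of ribosomal RNA. Their mRNAs are short and abundant and begin with a run of pyrimidines, the 5′ terminal oligopyrimidine (TOP) motif, through which mTORC1 and Larp1 set their translation. Several members also act outside the ribosome, among them Rpl5 and Rpl11, which as part of a 5S ribonucleoprotein bind MDM2 and thereby stabilise p53. JAB1 is the protease of the COP9 signalosome, a complex that controls cullin-based ubiquitin ligases by deneddylation.

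The start-site sequences of the members that the results turn on are shown first, because the TOP motif is the sequence feature by which this family is known. RefSeq promoter entries (GRCm38.p6) were at hand for 64 of the 89 genes, with 76 annotated starts. Printed are 40 bases before and the first 30 bases from the start, 5′ to 3′, for the 4 members with the smallest p in Cnp-Cre Jab1fl/fl versus WT (Rps19, Rps12, Rpl35 and Rps2), for the member with the smallest p between the mutants (Rpl28), and for the paralogs Rps27 and Rps27l. Capitals mark the longest unbroken run of C and T where it reached 8 bases.
Rps19, chr7:24884552-24884621, plus strand, the first of 3 annotated starts: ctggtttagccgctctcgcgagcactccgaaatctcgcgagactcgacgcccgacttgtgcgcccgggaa
Rps12, chr10:23787180-23787249, minus strand: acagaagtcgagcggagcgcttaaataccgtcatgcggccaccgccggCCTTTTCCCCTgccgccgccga
Rpl35, chr2:39005102-39005171, minus strand: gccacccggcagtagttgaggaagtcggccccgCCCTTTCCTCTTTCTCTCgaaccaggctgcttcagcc
Rps2, chr17:24720023-24720092, plus strand: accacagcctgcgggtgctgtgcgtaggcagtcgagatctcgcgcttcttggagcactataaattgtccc
Rpl28, chr7:4792925-4792994, plus strand: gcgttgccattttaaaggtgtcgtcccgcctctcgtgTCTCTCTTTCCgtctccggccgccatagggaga
Rps27, chr3:90213619-90213688, minus strand: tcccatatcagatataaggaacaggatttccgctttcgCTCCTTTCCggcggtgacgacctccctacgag
Rps27l, chr9:66946046-66946115, plus strand, the first of 2 annotated starts: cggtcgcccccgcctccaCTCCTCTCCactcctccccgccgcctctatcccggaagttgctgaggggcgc

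The run crossed the annotated start in Rpl35 (18 bases), Rpl28 (11 bases) and Rps27 (9 bases). In Rps12 it began at base 9 of the transcript, and in Rps27l it lay wholly upstream. Rps19 and Rps2 held no run of 8 in these windows, in which the longest were 5 and 6 bases. Of the 76 starts of ribosomal protein genes, 43 (56.6%) held such a run within the 70 bases, as compared with 26.8% of all 32851 starts in the table. The letters CTTTCC, which can lie inside such a run, were in 14 (18.4%) as compared with 3.33%. CGGAAG, the core of ETS-family sites, was found on either strand in the 300-base entries of 45 starts (59.2%) as compared with 16.9%, and TATAAA in 8 (10.5%) as compared with 13.6%. A match describes the letters of the window only, since annotated starts can differ by some bases from the one used.

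Before the comparisons, the labels and the sort were checked. Cops5, the floxed gene, was at 133, 46.3, 127 and 105 CPM (read counts normalised to library size, with TMM factors) in WT, at 89.03, 65.2, 68.4 and 45.0 CPM in Cnp-Cre Jab1fl/fl and at 47.3, 44.2, 90.4 and 52.3 CPM in double mutants. WT replicate 3 lay among the mutant samples and the other WT samples above them, and whether the reads fall inside the floxed part was not analysed here. The difference from WT did not pass the test in Cnp-Cre Jab1fl/fl (log2 fold change -0.62, SE 0.36, adjusted p = 0.349 by edgeR) or in double mutants (-0.82, SE 0.39, adjusted p = 0.424). Cdkn1a was at 41.6 CPM in WT, 452 in Cnp-Cre Jab1fl/fl and 88.4 in double mutants, and whether the last reads lie outside the deleted part was not tested. All 12 markers of mature oligodendrocytes were detected in each genotype, and 7 were called lower in Cnp-Cre Jab1fl/fl, with summed levels of 45900 to 107000 CPM in WT, 9090 to 35600 in the Cnp-Cre Jab1fl/fl samples and 17000 to 53300 in double mutants. WT replicate 3 had the largest total count and stood apart in the results that follow. Shares, and median fold changes of the members and gene lists against WT, are also given without it. Counts of calls are given so in part, whereas the length classes are not.

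Ribosomal protein genes took up a small share of the reads, and a larger one in the mutants. In WT the 89 genes together held 0.784% of all counts in replicate 1, 0.201% in replicate 3, 0.474% in replicate 5 and 0.536% in replicate 6. In Cnp-Cre Jab1fl/fl the shares were 0.864%, 1.26%, 0.889% and 1.37% in replicates 1 to 4. In double mutants they were 1.23%, 0.665%, 1.24% and 1.61% in replicates 1, 2, 3 and 5. Every Cnp-Cre Jab1fl/fl sample was thus above every WT sample, by a narrow margin between WT replicate 1 and Cnp-Cre Jab1fl/fl replicate 1, whereas double-mutant replicate 2 lay below WT replicate 1. The means were 0.499% ± 0.239 (SD, n = 4) in WT, 1.10% ± 0.257 in Cnp-Cre Jab1fl/fl and 1.19% ± 0.389 in double mutants. When WT replicate 3 was left out, the WT mean was 0.598% ± 0.164 (SD, n = 3). In bulk samples, fewer cells of a type and less RNA per cell cannot be told apart, and the same holds for a larger share and more transcripts per cell.

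Both subunits followed the same course. Small subunit genes held 0.204% ± 0.1001 of counts in WT, 0.458% ± 0.101 in Cnp-Cre Jab1fl/fl and 0.506% ± 0.173 in double mutants (SD, n = 4 each). Large subunit genes held 0.295% ± 0.139, 0.638% ± 0.157 and 0.680% ± 0.217. The ratio of large to small subunit counts was 1.42, 1.52, 1.42 and 1.49 in WT, 1.38, 1.37, 1.34 and 1.46 in Cnp-Cre Jab1fl/fl, with 1.32, 1.43, 1.34 and 1.33 in double mutants. The WT mean of this ratio was 1.44 ± 0.0419 (SD, n = 3) without WT replicate 3. The ranges overlapped between genotypes, through replicate 4 of Cnp-Cre Jab1fl/fl and replicate 2 of the double mutants.

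**Figure D1:**
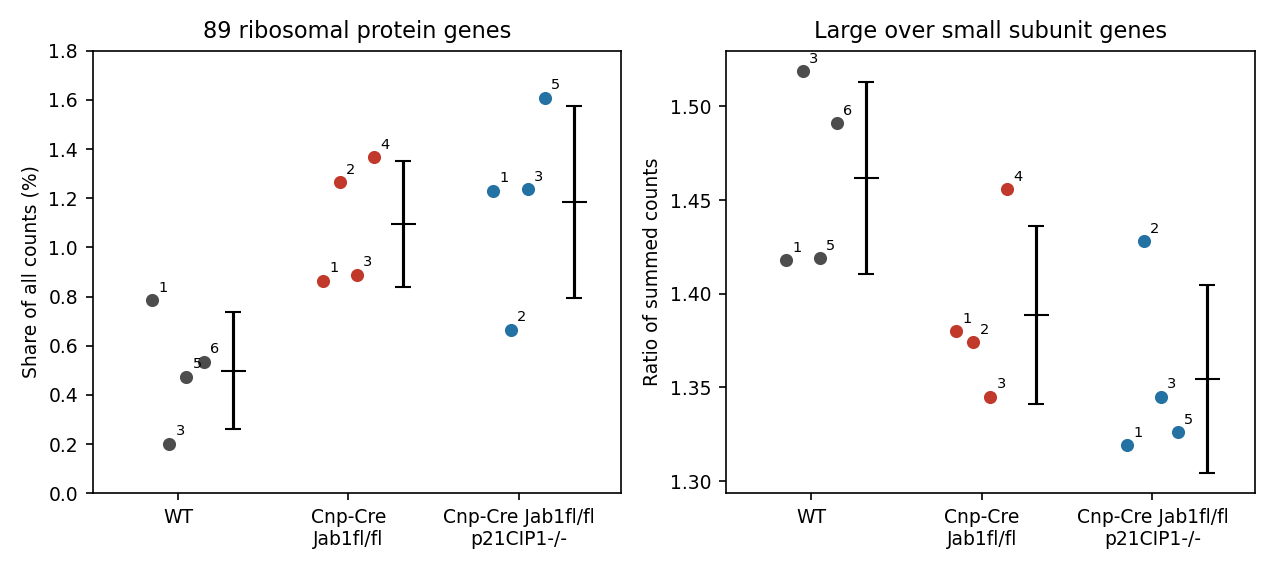
Left, the share of all counts (%, y axis) taken by the 89 ribosomal protein genes in each of 4 samples per genotype (x axis); right, the ratio of large to small subunit counts, on an axis that does not start at 0. Numbers are replicates and bars are mean ± SD; WT samples lie between 0.201% and 0.784% and Cnp-Cre Jab1fl/fl samples between 0.864% and 1.37%, while double-mutant replicate 2 falls at 0.665%.

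The members moved together from sample to sample, also within a genotype. For the 78 members averaging at least 10 CPM, each sample was described by the median of log2 CPM minus the 12-sample mean of the gene. This median was near 0 in WT replicate 1, -2.12 in WT replicate 3, -0.57 in WT replicate 5 and -0.62 in WT replicate 6. The Cnp-Cre Jab1fl/fl samples were at 0.18, 0.51, 0.04 and 0.72, and the double-mutant samples at 0.62, -0.43, 0.80 and 0.96. All 78 members were lowest in replicate 3 among the WT samples and 73 were highest in replicate 1. In double mutants 77 of the 78 were lowest in replicate 2, and in Cnp-Cre Jab1fl/fl 56 were highest in replicate 4. The median member differed 4.26-fold between the highest and the lowest WT sample.

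This shared shift made up most of the spread within genotypes. The median within-genotype SD of the 78 members was 0.68 on the log2 scale, and it was 0.21 once the median of the members was subtracted in each sample. The 10447 genes tested that averaged at least 10 TMM-scaled CPM had a median SD of 0.60. Subtracting their own sample medians could hardly change this, because TMM scaling had already aligned the samples on such genes. It is therefore no control for the drop in the members. In WT alone the median SD of the members was 0.89 as compared with 0.49 over those genes. The test of any 1 member therefore had to overcome a spread that all members shared, and members are not independent replicates of a genotype.

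Other measures varied between samples and genotypes too, and their part in the results was not tested. In WT replicate 3, other protein-coding genes with at most 1 kb of exonic sequence held 2.20% of counts, as compared with 4.93% to 6.32% in the other WT samples, and those over 4 kb held 40.7% as compared with 30.1% to 32.5%. Mitochondrially encoded genes held 1.46% to 3.41% of counts in WT, 3.76% to 10.1% in the Cnp-Cre Jab1fl/fl samples and 2.5% to 5.08% in double mutants. The 20 microglia markers, all detected in every genotype and all called higher in Cnp-Cre Jab1fl/fl although CD45+ cells were gated out, summed to 114 to 339 CPM in WT, 1390 to 3680 in the Cnp-Cre Jab1fl/fl samples and 524 to 24900 in double mutants, of which replicate 3 was the highest. The 10 endothelial markers summed to 427 to 992 CPM, 1010 to 7350 and 804 to 7970, and the 10 mural markers to 291 to 549, 1010 to 1790 and 306 to 1730, with no marker at 0. The 9 choroid plexus and ependymal markers summed to 314 to 4120 CPM, 6510 to 24600 and 5430 to 24000, and the 5 erythroid markers to 879 to 10900, 5200 to 88000 and 4310 to 22100. The 10 astrocyte markers summed to 4330 to 11900 CPM, 3110 to 6370 and 3270 to 8500, and the 10 markers of oligodendrocyte precursors to 667 to 1750, 604 to 1090 and 605 to 1260. Both sums were highest among WT samples in replicate 3, the WT sample with the lowest share of ribosomal protein counts. The precursor sum was highest among double mutants in replicate 2, which had the lowest share of that genotype. Most single precursor markers did not follow the sum in Cnp-Cre Jab1fl/fl versus WT. There 7 of the 10 had a log2 fold change above 0 (median 0.88), as compared with 51.0% of all genes. By edgeR 1 was called higher and 0 lower, where 5.19% of all genes were called higher. In double mutants versus WT their median was -0.34, with 0 called. Without WT replicate 3 the medians were 1.09 and -0.28, with 0 called higher. The 10 neuron markers summed to 208 to 337 CPM, 328 to 750 and 272 to 760.

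**Figure D2:**
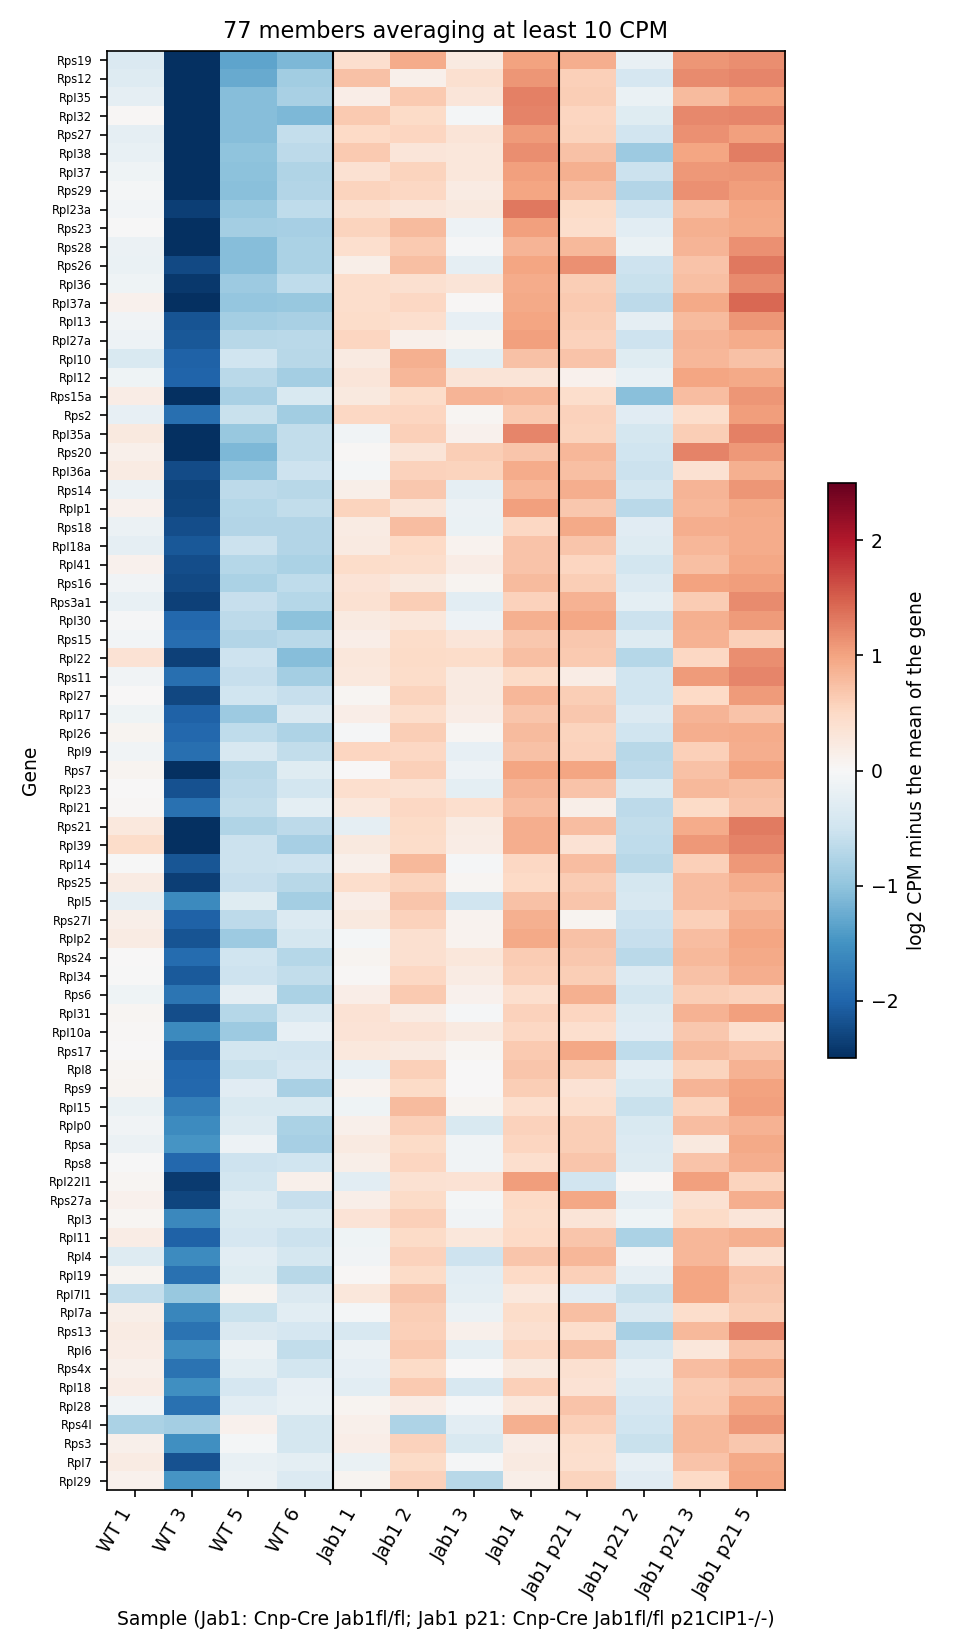
Levels of 77 of the 78 members averaging at least 10 CPM (rows, ordered by their fold change in Cnp-Cre Jab1fl/fl versus WT) in the 12 samples (columns), as log2 CPM minus the mean of the gene, with colours saturating at the ends of the scale. WT replicate 3 is the lowest WT sample in all 77 rows and double-mutant replicate 2 the lowest of its genotype in 76.

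The first comparison asked how loss of Jab1 in oligodendrocytes changed these genes. In Cnp-Cre Jab1fl/fl versus WT, 85 of the 89 members passed the filter (1 CPM or more in 4 or more of all 12 samples), and all 85 had a log2 fold change above 0. Their median was 1.02 (2.03-fold), with a range of 0.34 to 1.85, whereas all 17716 genes tested had a median of 0.02. Of the 85, 2 were called higher and 0 lower by edgeR's quasi-likelihood test (adjusted p under 0.05), whereas 5.19% of all genes were called higher. With the unadjusted p under 0.05, 58 of the 85 were higher and 0 lower, against 13.2% of all genes higher. In 34 of the 85 every Cnp-Cre Jab1fl/fl sample was above every WT sample, against 9.9% of all genes. Both the 85 and the 34 include the pseudogene Rps3a2, at 0.14 to 0.67 CPM in WT. It passed the filter through mutant samples only, so its higher level there is no support. Rpl6l (0.21 to 1.14 CPM in WT), Rps3a3 (0.36 to 1.72), Rpl24 (0.64 to 3.30) and Rps10 (0.89 to 2.03) also needed mutant samples to pass. Their higher level adds no support either, and Rpl6l and Rpl24 are among the 34.

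The members called were both of the small subunit. Rps19, needed for maturation of 18S ribosomal RNA and mutated in Diamond-Blackfan anemia, lies at chr7:24884371-24889806 (GRCm38, plus strand, 6 exons after merging overlaps). Its level was 135, 25.5, 69.6 and 79.7 CPM in WT replicates 1, 3, 5 and 6, and 233, 329, 204 and 351 CPM in Cnp-Cre Jab1fl/fl replicates 1 to 4. The groups did not overlap, with WT replicate 1 the closest to the mutants. The log2 fold change was 1.85 (SE 0.45, adjusted p = 0.0306 by edgeR). Rps12, a 40S protein known in flies for its part in cell competition, lies at chr10:23785183-23787275 (minus strand). It was at 26.6, 5.87, 13.9 and 18.2 CPM in WT and at 55.5, 36.4, 43.7 and 71.0 CPM in Cnp-Cre Jab1fl/fl, again without overlap (log2 fold change 1.68, SE 0.44, adjusted p = 0.0428 by edgeR).

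The next members by p, which were not called, had similar patterns. Rpl35, a 60S protein beside the peptide exit tunnel, was at 81.2, 16.3, 45.6 and 54.4 CPM in WT and at 106, 149, 117 and 226 CPM in Cnp-Cre Jab1fl/fl (log2 fold change 1.60, SE 0.45, adjusted p = 0.0539 by edgeR). Rps2, a 40S protein near the mRNA entry channel, was at 99.8, 30.9, 77.7 and 63.2 CPM and at 164, 166, 119 and 181 CPM (1.21, SE 0.36, adjusted p = 0.0636 by edgeR). In both genes the groups did not overlap, and replicate 3 was the lowest in WT. At the other end were Rps10 (0.34, SE 0.88) and Rpl29 (0.45, SE 0.38), a 60S protein. Rpl29 was at 70.1, 23.5, 58.9 and 51.9 CPM in WT and at 68.7, 97.6, 40.6 and 72.1 CPM in Cnp-Cre Jab1fl/fl, so that its groups overlapped. Rps10 was at 1.38 CPM in WT and is uncertain, because 54.3% of its exonic bases are shared with other annotated genes.

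The number of calls depended on single libraries and on the test, while the median stayed above 0. Without WT replicate 3 the median log2 fold change was 0.74 and all 85 members were above 0. By edgeR 45 were higher with an unadjusted p under 0.05, as were 2146 of all 17716 genes. In that fit 1 member, Rps19, was called, where 626 of all 17716 genes were called higher. Leaving out 1 of the 8 libraries at a time left Rps19 called in 4 of 8 fits and Rps12 in 2 of 8. By this approach 0 members were called without WT replicate 5, WT replicate 6 or replicate 1 or 4 of Cnp-Cre Jab1fl/fl. Calls over all 17716 genes fell too, to 504, 573, 561 and 528 higher in those fits, from 919 with all 8 libraries. DESeq2 called 24 of the 85 higher (9.52% of all genes), and edgeR over the 10466 genes averaging at least 10 CPM without TMM factors called 18 of 78 (9.13% of those genes). Without a filter 88 members were tested, of which 86 were above 0 and 0 were called, where 581 of 36070 genes were called higher.

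**Figure D3:**
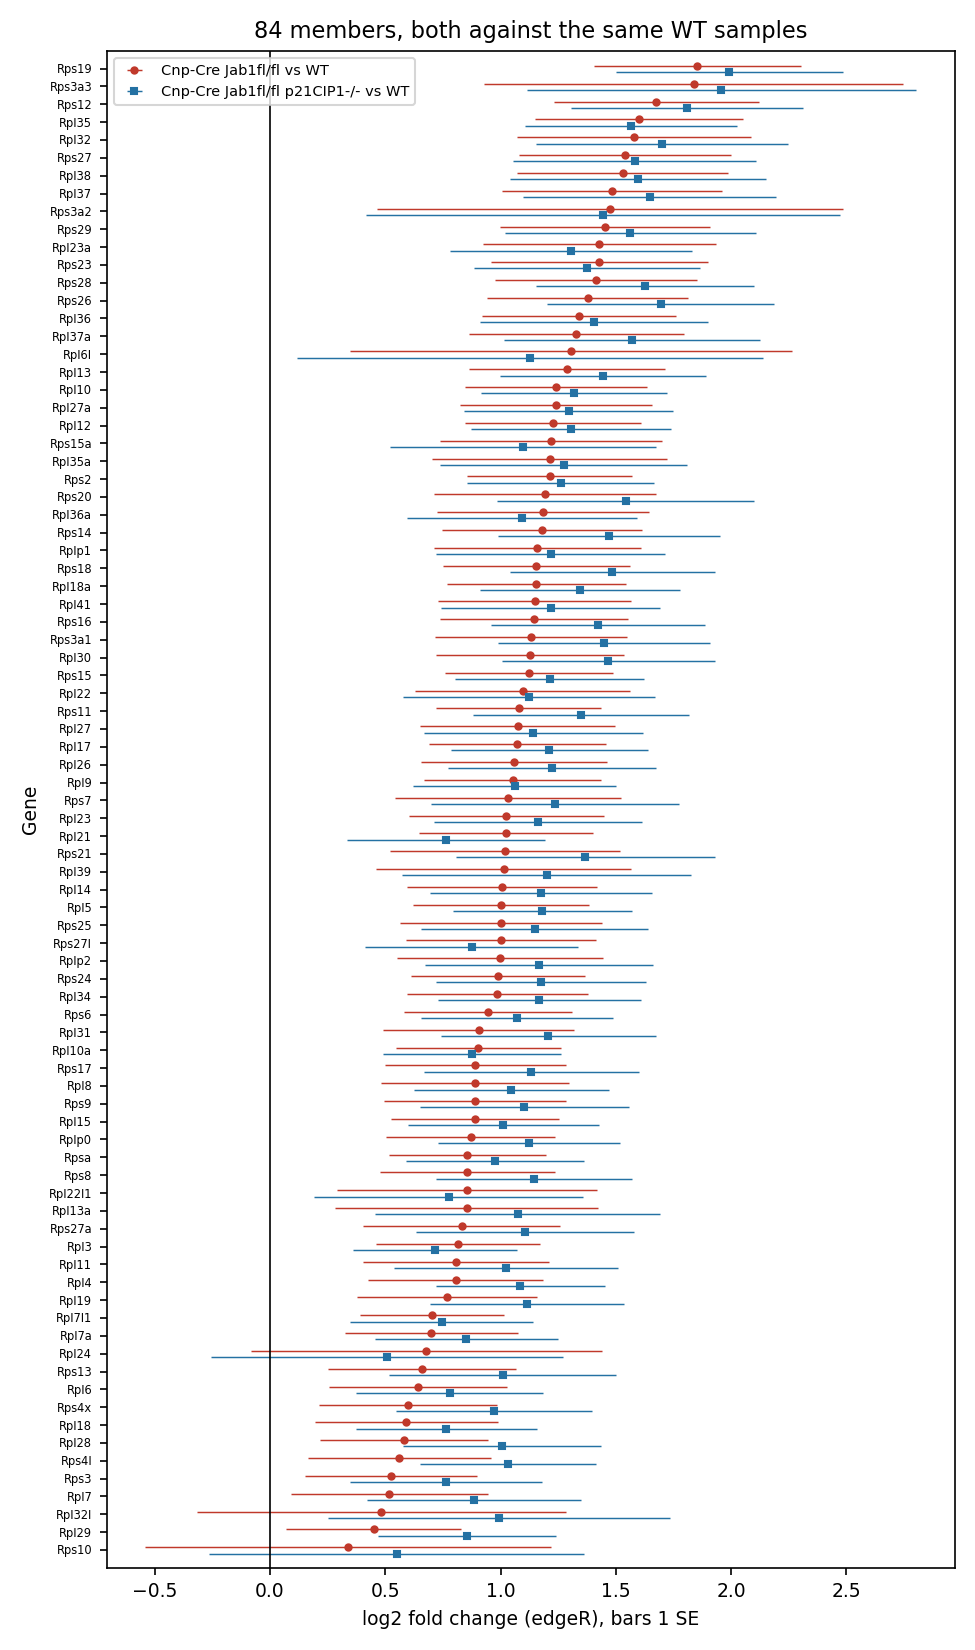
Log2 fold change (x axis, edgeR, bars 1 SE) of 84 of the 85 members tested (y axis) in Cnp-Cre Jab1fl/fl versus WT (circles) and in double mutants versus WT (squares), which share the 4 WT samples. All values lie above 0, from 0.34 to 1.85 and from 0.51 to 1.99.

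The second comparison set double mutants against the same WT samples. Again all 85 members were above 0, with a median log2 fold change of 1.17 (2.26-fold) and a range of 0.51 to 1.99, as compared with a median of 0.00 over all genes. Of the 85 members 0 were called by edgeR, where 0.175% of all genes were called higher. With an unadjusted p under 0.05, 62 were higher, against 7.82% of all genes. DESeq2 called 16 higher (3.74% of all genes) and limma-voom 0, where 38 of all 17716 genes were called higher. The groups did not overlap in 6 of the 85, against 4.52% of all genes, since double-mutant replicate 2 lay below WT replicate 1 for most members. The 6 again include Rps3a2. Without WT replicate 3 the median was 0.91, with 0 called, where 2 of all 17716 genes were called higher.

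The 4 members with the smallest p were Rps19, Rps12, Rps28 and Rps26, closely followed by Rpl35. Rps19 was at 326, 154, 373 and 390 CPM in double-mutant replicates 1, 2, 3 and 5, all above the WT samples given before (log2 fold change 1.99, SE 0.49, adjusted p = 0.139 by edgeR). Rps12 was at 50.01, 24.8, 75.9 and 77.7 CPM, of which replicate 2 lay below WT replicate 1 (1.81, SE 0.50, adjusted p = 0.186 by edgeR). Rps28, another 40S protein, whose exons partly overlap Kank3 on the other strand, was at 55.1, 10.6, 29.1 and 34.9 CPM in WT and at 107, 54.1, 109 and 134 CPM in double mutants (1.63, SE 0.47, adjusted p = 0.200 by edgeR). Rps26, which lines the mRNA exit channel, was at 60.05, 14.0, 31.9 and 38.6 CPM and at 149, 46.6, 110 and 166 CPM (1.69, SE 0.49, adjusted p = 0.201 by edgeR). In Rps28 and Rps26 the groups overlapped through double-mutant replicate 2. The lowest were Rpl24 (0.51, SE 0.76), of which 71.5% of exonic bases are shared with another gene, and Rps10 (0.55, SE 0.81).

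The third comparison asked whether loss of p21CIP1 altered these genes in Jab1 mutants. Between double mutants and Cnp-Cre Jab1fl/fl, 72 of the 85 members were above 0, with a median log2 fold change of 0.17 (1.12-fold) and a range of -0.25 to 0.53, as compared with 0.02 over all genes. edgeR, DESeq2 and limma-voom each called 0 members, and 0 had an unadjusted p under 0.05 by edgeR, where 0.0% of all genes were called higher and 1.75% had an unadjusted p under 0.05 and were higher. In none of the 85 were the groups apart, against 1.22% of all genes with all double-mutant samples higher. A difference within the standard errors, whose median was 0.36 on the log2 scale, was not detectable with these samples. Differences above their standard error were not called either, such as 0.44 for Rpl28 (SE 0.32). Leaving out 1 library at a time moved the median between 0.03, when double-mutant replicate 5 was left out, and 0.38, when replicate 2 was.

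The members with the smallest p between the mutants were not past the threshold. Rpl28, a 60S protein, was at 89.4, 96.6, 83.5 and 103 CPM in Cnp-Cre Jab1fl/fl and at 140, 63.9, 135 and 166 CPM in double mutants (0.44, SE 0.32, adjusted p = 0.996 by edgeR). Double-mutant replicate 2 was below all Cnp-Cre Jab1fl/fl samples, and the other double-mutant samples were above them. Rps4x, the X-linked 40S protein, differed by 0.38 (SE 0.32) and Rpl7 of the 60S subunit by 0.38 (SE 0.32). The lowest were Rpl21 (-0.25, SE 0.33), a 60S protein, and the pseudogene Rpl6l (-0.17, SE 1.01). For Rps19 the difference was 0.15 (SE 0.36) and for Rps12 it was 0.14 (SE 0.40).

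Length set the members apart from most coding genes, and fold changes varied with it. The members had a median of 946 exonic bases, with a range of 383 to 5395, as compared with 3381 for the protein-coding genes tested. In Cnp-Cre Jab1fl/fl versus WT, other protein-coding genes of at most 1 kb had a median log2 fold change of 0.46 (541 genes), those of 1 to 2 kb 0.13 (2451), those of 2 to 4 kb -0.08 (5240) and longer ones -0.09 (5401). The members in the same classes had medians of 1.14 (46 genes), 0.99 (29), 1.0 (9) and 1.22 (1). In double mutants as compared with WT the medians of the other genes were 0.49, 0.25, 0.02 and -0.16, and those of the members 1.24, 1.17, 1.01 and 1.10. Between the mutants the medians of the other genes were 0.09, 0.16, 0.14 and -0.06. Across the 85 members, Spearman's rho of fold change and exonic length was -0.31, -0.34 and 0.06 in the 3 comparisons. These are descriptions across genes that share the same libraries.

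**Figure D4:**
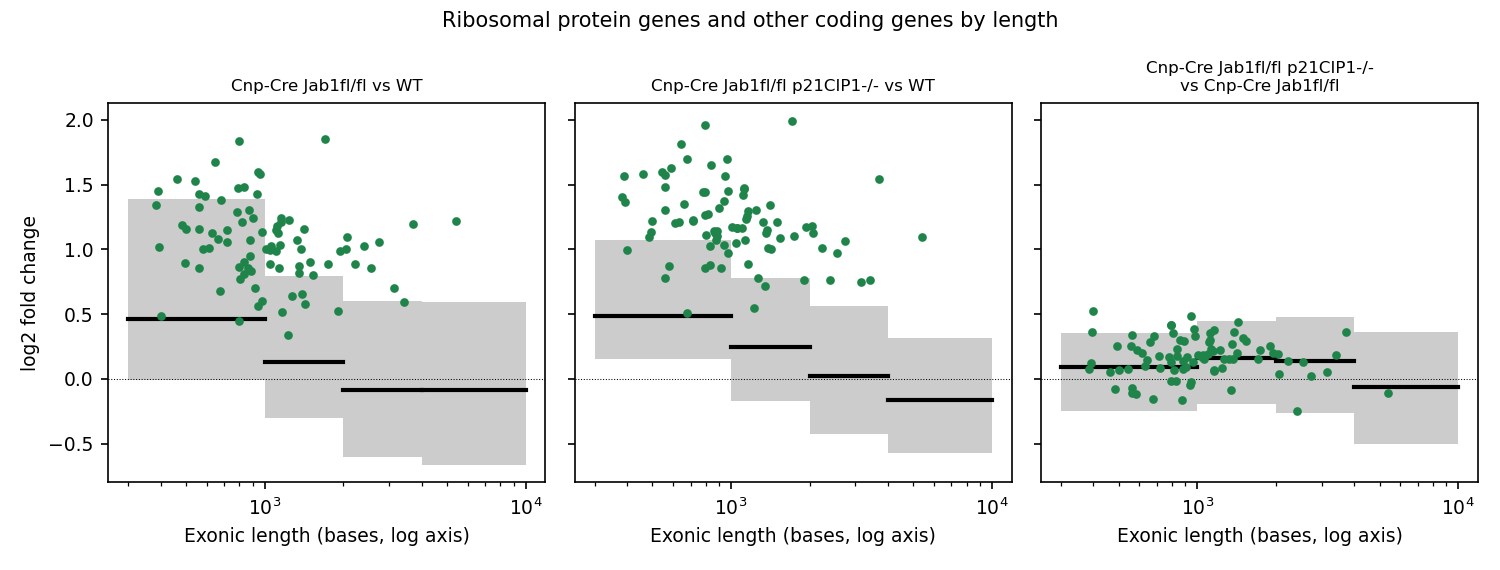
Log2 fold change (y axis) against exonic length (x axis, log scale) of the 85 ribosomal protein genes tested (points), in the 3 comparisons. Black lines and grey bands give the median and the interquartile range of other protein-coding genes in 4 length classes; in Cnp-Cre Jab1fl/fl versus WT the members of at most 1 kb have a median of 1.14 and other genes of that class 0.46.

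By level per kilobase of exon, members spanned a wide range in WT, with 53.9 CPM per kb as their median and 4.58 as that of all genes tested. The median was 110 CPM per kb in Cnp-Cre Jab1fl/fl and 126 in double mutants. The highest in WT were Rpl13 (191 ± 97.2 CPM per kb, SD, n = 4), Rps29 (178 ± 107), Rpl41 (160 ± 91.4) and Rpl36 (157 ± 84.2), whose order does not hold beyond their spread. In Cnp-Cre Jab1fl/fl these were at 465, 486, 354 and 398 CPM per kb. The lowest of those tested were Rps3a3 (1.18 CPM per kb), Rps10 (1.13), Rpl6l (0.70) and Rps3a2 (0.49). Rps3a2 was the 1 member that passed the filter with under 1 CPM in every WT sample.

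Some members share annotated bases with other genes. Exonic bases of 19 members overlap another gene of either strand, by more than 40% in 8 of them. The latter were Rps12l1 (100.0%), Rpl24, Rpl23a (55.4%), Rpl30 (55.0%), Rpl13a (54.9%), Rps10, Rps25 (48.7%) and Rpl5 (46.6%). Whether reads that fall on several genes were counted is not given in the sources used here, so the levels of these 8 are uncertain. Rpl24 was at 2.45 CPM and Rpl13a at 4.23 CPM in WT, while the genes that cover them, Gm28037 and Gm45713, were at 0.0 CPM in WT and in Cnp-Cre Jab1fl/fl. Named pseudogenes, which are near-identical copies of members, numbered 305 in the table and held 0.005% to 0.012% of counts in WT, 0.016% to 0.028% in the Cnp-Cre Jab1fl/fl samples and 0.010% to 0.023% in double mutants.

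Paralogs of ribosomal proteins are of interest because some are restricted to a tissue or regulated on their own. Rps27l, Rpl22l1 and Rpl7l1 passed the filter, with 0 called in any comparison. Rps27l, which is a transcriptional target of p53, was at 112, 24.96, 64.2 and 79.8 CPM in WT, at 119, 149, 107 and 187 CPM in Cnp-Cre Jab1fl/fl and at 106, 70.2, 153.2 and 190 CPM in double mutants. Its partner Rps27 was at 96.5, 16.2, 54.4 and 74.5 CPM, at 161, 164, 142 and 237 CPM, and at 167, 80.9, 250 and 232 CPM. The coding sequences of the pair are 76.1% identical over 255 aligned bases.

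Relative to its partner, Rps27l was at a lower level in every mutant sample than in WT. Its reads per kilobase were 92.4%, 122%, 93.9% and 85.3% of those of Rps27 in WT, 58.9%, 72.7%, 60.2% and 62.9% in Cnp-Cre Jab1fl/fl, with 50.5%, 69.1%, 48.9% and 65.3% in double mutants. Every mutant sample was below every WT sample. The log2 ratio differed from WT by -0.62 in Cnp-Cre Jab1fl/fl and by -0.76 in double mutants (two-sided exact permutation test, p = 0.0286 each, the smallest that 4 samples against 4 allow, and adjusted p = 0.171 over the 12 tests of pairs). Both differences fail the correction. Between the mutants it was -0.13 (exact permutation p = 0.371). Without WT replicate 3, the highest WT sample, the differences remained in the same direction, and over all leave-one-out settings they ran from -0.69 to -0.51 and from -0.84 to -0.65. Rps27l itself was at a mean of 70.2 CPM in WT and 140 CPM in Cnp-Cre Jab1fl/fl, and neither gene of the pair was called. In Cnp-Cre Jab1fl/fl versus WT, the log2 fold change of Rps27l differed from that of the median member by -0.02 and that of Rps27 by 0.52. In double mutants versus WT these differences were -0.30 and 0.41.

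The other pairs varied within genotypes. Rpl22l1 was at 131% ± 70.3 of Rpl22 per kilobase in WT, 97.5% ± 23.2 in Cnp-Cre Jab1fl/fl and 108% ± 60.1 in double mutants (SD, n = 4 each), with log2 differences from WT of -0.33 (exact permutation p = 0.457) and -0.34 (p = 0.571). Rpl7l1, related to a yeast factor of large subunit assembly, was at 27.5% ± 16.8, 24.2% ± 4.82 and 18.8% ± 5.46 of Rpl7 (exact permutation p = 0.971 and 0.429). Rpl39l, known mainly from testis, was at 0.239% ± 0.176, 1.09% ± 0.790 and 0.773% ± 0.615 of Rpl39, log2 differences of 2.21 (exact permutation p = 0.0571) and 1.75 (p = 0.0857), on a median of 25 counts. All adjusted p values of these pairs were 0.229 or more. Rpl3l and Rpl10l, the muscle and testis forms, had medians of 10 and 8 counts. Rpl3l was uneven, with 534 and 646 counts in WT replicates 1 and 3 and 242 in double-mutant replicate 2. In the other samples it was at 0 to 50 counts. Rpl10l fell under the minimum of 10, and Rpl3l was at 0 counts in 4 samples, so that no ratio could be formed. Rps12l1 was at 0 counts in all samples, which at 3 counts of the smallest total allows up to 0.0488 CPM.

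**Figure D5:**
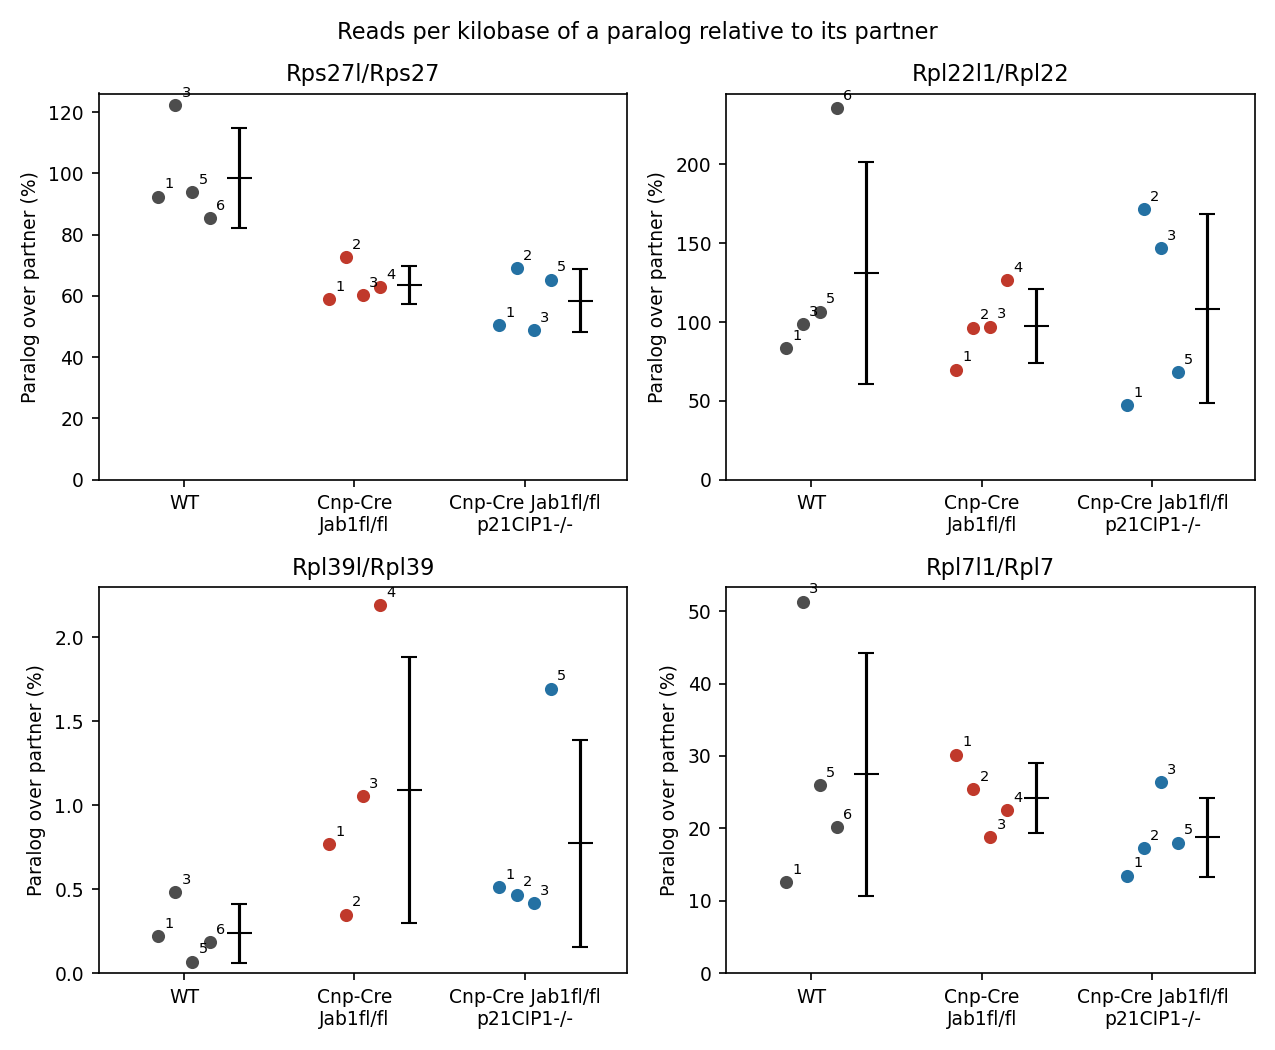
Reads per kilobase of a paralog as a percentage of its partner (y axis) in each sample of the 3 genotypes (x axis), for 4 pairs; numbers are replicates and bars mean ± SD. Rps27l/Rps27 lies at 85.3% to 122% in WT and at 48.9% to 72.7% in the mutants.

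Groups of members with a known role had medians near that of all members. The 18 members linked to p53 control, among them Rpl5, Rpl11 and Rps27l, had a median log2 fold change of 1.03 in Cnp-Cre Jab1fl/fl versus WT. All 18 were above 0 and 1 was called, the Rps19 described before, where 5.19% of all genes were called higher. In double mutants their median was 1.2 with 0 called, where 0.175% of all genes were called higher. The 4 genes of the ribosomal stalk, Rplp0, Rplp1, Rplp2 and Rpl12, had medians of 1.08 and 1.19, with 0 called. All 4 had an unadjusted p under 0.05 in both comparisons, as did 58 and 62 of the 85 members. The medians without WT replicate 3 were 0.75 and 0.94 for the p53-linked members and 0.78 and 0.91 for the stalk. Fau, which encodes a ribosomal protein fused to a ubiquitin-like part, lies outside the symbol rule. It had log2 fold changes of 1.07 (SE 0.40) and 1.11 (SE 0.44) and was not called.

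Genes that share the TOP motif or serve ribosome production were followed beside the members. In Cnp-Cre Jab1fl/fl versus WT, 19 of 20 TOP-encoded translation factors were above 0 (median log2 fold change 0.51) and 1 was called higher, as compared with 51.0% of all genes above 0 and 5.19% called higher. The called gene was Pabpc1, the poly(A)-binding protein, at 46.6 ± 6.18 CPM in WT and 118 ± 37.6 CPM in Cnp-Cre Jab1fl/fl (SD, n = 4 each, log2 fold change 1.34, SE 0.30, adjusted p = 0.0225 by edgeR). Rack1, the scaffold protein of the 40S subunit, differed by 1.02 (SE 0.30, adjusted p = 0.0663 by edgeR) and Eif3h, a subunit of initiation factor 3, by 0.73 (SE 0.32). Of 9 snoRNA host genes, whose transcripts carry a TOP motif, 9 were above 0 (median 1.03) and 1 was called, Snhg1 (1.58, SE 0.42, adjusted p = 0.0423 by edgeR). Snhg12 (2.01, SE 0.63) and Snhg8 (1.74, SE 0.58) were not. In double mutants as compared with WT the median of the 20 factors was 0.65 and that of the host genes 0.38, with 0 called in either list. These medians were 0.43 and 0.15 when WT replicate 3 was left out, with 0 called higher. Without WT replicate 3, 16 of the 20 factors were above 0 in Cnp-Cre Jab1fl/fl (median 0.29) and 9 of the 9 host genes (median 0.79), with 0 called. Between the mutants the host genes were above 0 in 0 of 9 (median -0.52), with 0 called.

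Among 37 ribosome biogenesis genes, 25 were above 0 in Cnp-Cre Jab1fl/fl (median 0.30) and 4 were called higher, against the same 51.0% and 5.19% of all genes. Leaving out WT replicate 3, 21 were above 0 (median 0.22) and 1 was called. Ddx21, a nucleolar helicase, was at 16.8 ± 5.25 CPM in WT and 68.2 ± 34.7 CPM in Cnp-Cre Jab1fl/fl (2.02, SE 0.40, adjusted p = 0.0137 by edgeR). Tcof1, which promotes transcription of ribosomal DNA, rose by 1.51 (SE 0.34, adjusted p = 0.0233 by edgeR) and Nop14, of the small subunit processome, by 1.23 (SE 0.30, adjusted p = 0.0323 by edgeR). Of 13 RNA polymerase I genes, 8 were above 0 (median 0.26), or 9 without WT replicate 3 (median 0.37, 0 called), and 1 was called, Znrd1, a polymerase subunit (1.29, SE 0.35, adjusted p = 0.0469 by edgeR), while Taf1d (1.06, SE 0.33) and Polr1e (1.68, SE 0.68) were not. In double mutants as compared with WT, 0 genes of either list were called, with medians of 0.31 and 0.28. These medians were 0.194 and 0.189 when WT replicate 3 was left out.

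The 23 genes of mTORC1 signalling and TOP control had 11 above 0 in Cnp-Cre Jab1fl/fl (median -0.09) and 1 called, where 5.19% of all genes were called higher. Without WT replicate 3 the median was 0.17, with 13 above 0 and 1 called. Eif4ebp1, the repressor of cap-dependent translation that mTORC1 inactivates, was at 4.50 ± 2.11 CPM in WT, 45.4 ± 24.9 CPM in Cnp-Cre Jab1fl/fl and 45.2 ± 9.21 CPM in double mutants. It was called higher in both mutants, by 3.34 (SE 0.55, adjusted p = 0.00653 by edgeR) and by 3.32 (SE 0.46, adjusted p = 0.0404 by edgeR). The call in double mutants was kept in 1 of 8 fits with 1 sample left out (adjusted p of 0.0237 to 0.142 by edgeR). Tsc1 and Mlst8, an inhibitor and a subunit of mTORC1, had values of -1.04 (SE 0.30) and -0.92 (SE 0.39) in Cnp-Cre Jab1fl/fl and were not called. The 77 mitochondrial ribosomal protein genes tested, which encode the other ribosome of the cell, had medians of 0.20 and 0.33 as compared with WT and of 0.09 between the mutants, with 0 called in each. Their medians against WT were -0.04 and 0.12 without WT replicate 3.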

How the data were processed

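Sorted O1+ CD45- oligodendrocytes of 12 samples were analysed, 4 per genotype as the labels give them. The authors made libraries with a SMART-Seq v4 kit, trimmed reads (Trimmomatic 0.32 per the submitters' processing notes), aligned them to GRCm38 (STAR 2.5.3a) and counted them per gene (featureCounts). The authors deposited unnormalized read counts, with 1 row per symbol. There were 0 rows naming no gene.

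The members and gene lists were chosen with earlier results of these data known. Counts were fitted with edgeR 4.0.16 (R 4.3.3, quasi-likelihood test, TMM factors) on the 8 samples compared, over genes that reached 1 CPM in 4 or more of 12 samples, with Benjamini-Hochberg adjustment over all 17716 genes and a threshold of 0.05. Plotted and printed CPM use TMM factors of all 12 samples. Standard errors (SE) were derived from this fit, as the absolute log2 fold change over the square root of its F statistic. Paralog ratios were tested by exact permutation over 70 relabelings. Lengths and positions are from GENCODE M21 basic (GRCm38), with which all 89 members matched, and the study's methods name a neighbouring release. Some items that this rule picks are not reported here, and 1 member is left out of the gene-labelled plots. The script was tested on simulated data. Named were the 4 members with the smallest p per comparison, the 2 with the lowest fold change, paralogs and partners, the 4 highest and 4 lowest per kb, Fau, and 3 genes of each related list. In the smallest sample 1 CPM is 61.5 counts, so the spread between samples set the precision. Reads carry no molecular identifiers, and floors cover counting error only. Samples of a genotype differed beyond sampling noise (chi-square over its degrees of freedom was 210 or more). Alternatives were DESeq2 1.42.0, other scalings and filters, limma-voom (limma 3.58.1), all 12 samples, a replicate block and each sample left out. The values of shares and gene lists without WT replicate 3, and of Eif4ebp1 in double mutants with samples left out, were chosen after seeing the data.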

Additional observations from a re-analysis of the deposited data

Results flagged for a closer look

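Within groups of 4 samples, 4 of the 102 groups examined (the share, each named member and each ratio) had 1 sample that stood far from the rest, its gap to the nearest taking up most of the range. Chance flags about 5% of such groups. Rpl10 (87.0 CPM) was low in double-mutant replicate 2, the sample in which most members were lowest of that genotype. Rpl36 was high in Cnp-Cre Jab1fl/fl replicate 4 (200 CPM). The ratio of Rpl22l1 to Rpl22 per kilobase was high in WT replicate 6 (236%), and that of Rpl39l to Rpl39 was high in double-mutant replicate 5 (1.69%).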

How the results depend on the processing

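The median log2 fold change of the members stayed above 0 in all settings tried for each comparison with WT, and it was 0.74 to 1.37 in Cnp-Cre Jab1fl/fl and 0.91 to 1.498 in double mutants when 1 sample at a time was left out. The count of members called higher in Cnp-Cre Jab1fl/fl, 2 in the report, depended on the setting. It was 24 with DESeq2 (9.52% of all genes) and 18 over the 10466 genes averaging at least 10 CPM (9.13% of those). With limma-voom it was 6 of 85, where 1307 of all 17716 genes were called higher. Without a filter it was 0, where 581 genes were called higher. It ran from 0 to 7 when 1 sample was left out. The 7 were found without WT replicate 1, where 596 of all 17716 genes were called higher. In double mutants DESeq2 called 16, where 663 of all 17716 genes were called higher, and every other setting called 0. Several of those settings called few genes of any kind, such as 20 without a filter and 1 with the replicate block. All 12 samples in 1 fit gave 157. A count of 0 where few genes were called says little about the members. For these differences between tests the cause was not tested. Without a filter 36070 genes were adjusted for.

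Replicate numbers did not pair the samples, since the labels do not tie them to a litter or day and same-numbered samples had correlations of -0.188 to 0.083 in their deviations from the group means. With the replicate block 0 members were called in Cnp-Cre Jab1fl/fl versus WT, where 420 of all 17716 genes were called higher. Only replicate numbers 1 and 3 occur in both of these genotypes, so that contrast rested on the samples with these numbers. The count of 0 members therefore says little about them.

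Rpl6l between the mutants ranged from -0.40 to 0.12 with 1 sample left out. Among the pairs, the log2 ratio Rpl22l1/Rpl22 between the mutants ranged from -0.29 to 0.33, Rpl7l1/Rpl7 in Cnp-Cre Jab1fl/fl from -0.33 to 0.35, and Rpl39l/Rpl39 in double mutants from 1.26 to 2.20. The last value, without WT replicate 3, had an exact permutation p of 0.0286 before adjustment, the smallest that 3 samples against 4 allow, and the same pair in Cnp-Cre Jab1fl/fl was then 2.66 (exact permutation p = 0.0571). Called genes outside the members depended on single samples too: of the 8 fits with 1 sample left out, Pabpc1 was called in 2, Tcof1 in 1, Nop14 in 1, Znrd1 in 0 and Snhg1 in 0, whereas Ddx21 and Eif4ebp1 were called in 8 in Cnp-Cre Jab1fl/fl versus WT.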
